A study of Mus musculus with 6 samples.

Results

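Single-cell RNA sequencing libraries of sorted ileal crypt epithelium were examined for 8 genes that mark the stem cells at the base of the crypt, namely Lgr5, Olfm4, Ascl2, Smoc2, Rgmb, Tnfrsf19, Prom1 and Cdca7. The genes were chosen by symbol from the gene list of the count matrices and are 8 of the 32285 genes listed. The questions asked of them were in which cell classes they were found, whether they were found together in the same cell at equal depth, and whether they differed between the genotypes.

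Crypt base columnar cells divide throughout life and feed a compartment of rapidly dividing transit-amplifying (TA) cells, whose progeny become enterocytes, Paneth, goblet, enteroendocrine and tuft cells. Wnt ligands, amplified by R-spondins that bind LGR receptors, keep these cells at the crypt base, and many of the genes used to mark them are Wnt targets. The 8 markers do different work in the cell: Lgr5, Tnfrsf19, Prom1 and Rgmb encode surface proteins, Olfm4 and Smoc2 encode secreted ones, and Ascl2 and Cdca7 encode nuclear proteins.

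The control group, Fpr2 f/f, carried a floxed Fpr2 gene, and its libraries are given the genotype WT in the sample labels. In the Fpr2 VKO group the same floxed gene was combined with Villin-Cre, a transgene that acts throughout the intestinal epithelium and so in every epithelial class described here. The floxed mice had a C57BL/6J background, and animals of 8 to 12 weeks were used. Crypts were taken from the ileum, dissociated with TrypLE Express and sorted for EpCAM, a surface protein of epithelial cells. Each group had 3 libraries, and the study counts its mice per group by the same number, although the labels name no animal.

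The 6 libraries held 90142126 to 189516114 unique molecular identifiers (UMIs, each standing for 1 captured transcript). After filters of at least 1000 UMIs, at least 500 genes and at most 20% mitochondrial UMIs, 17104 cells remained, 1868 to 4722 a library. The mitochondrial limit removed 65.7 to 90.1% of the barcodes that had passed the other 2 filters. These shares were 78.0, 65.7 and 70.9% in the Fpr2 f/f libraries and 90.1, 76.1 and 85.6% in the Fpr2 VKO libraries. Median UMIs per cell were lower in the Fpr2 f/f libraries (3033, 4602 and 4612) than in the Fpr2 VKO libraries (6358, 6728.5 and 6686.5), so every share of cells with a UMI of a gene is given at an equal depth of 3000 UMIs unless said otherwise. Fpr2 itself had 0 UMIs in every library, in the cells and in all barcodes alike, so the transcript could not check the genotype labels. Over all barcodes this allows at most 0.0158 to 0.0333 counts per 1000000 UMIs, and the limit is higher for the cells, which hold fewer UMIs.

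Clusters were built without the 8 genes and named from other markers. The class called stem-like held 1024 cells in 3 clusters. One of 265 cells was led by Gkn3, Ifitm3, Aqp4, Slc12a2 and Igfbp4 and is called the Gkn3-led cluster. A second of 421 cells was led by Ifitm3 and the stem cell genes Aqp4 and Slc12a2 together with the division genes Pbk, Stmn1 and Pclaf. It raised the TA marker list as much as the stem list (mean log2 fold over all other cells 1.43 and 1.38). Its class name rests on the stem markers among its leading genes. The third, of 338 cells, was led by the DNA replication genes Mcm4, Mcm6, Cdt1 and Uhrf1 beside Ifitm3 and Aqp4. Of the 1024 cells, 13 were marked as possible doublets. Median depth over the 3 clusters together was 28715.5 UMIs, against 7030 in the 1740 TA-like cells. That contrast did not hold for every TA-like cluster. The one led by Cenpf, with 1100 cells, had a median of 4671 UMIs. Those led by Pbk and Ccnb1 had 34901 and 39162, above the stem-like median. The other named epithelial classes held 803 enterocyte-like, 925 Paneth-like, 2070 goblet-like, 462 enteroendocrine-like and 366 tuft-like cells, and 9381 cells could not be named. A further 333 immune-like cells, which should lack the markers other than the cell cycle gene Cdca7, and the free RNA of barcodes under 100 UMIs served as background.

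Lgr5 (chr10:115450311-115587780, minus strand, in GENCODE vM21 on GRCm38, the build also called mm10) encodes the R-spondin receptor by which crypt base columnar cells are usually recognised. The level of a gene in a class is given as its share of all UMIs summed over the cells of that class, in counts per 1000000 UMIs (CPM). In stem-like cells it was 82.0, 132 and 156 in the Fpr2 f/f libraries and 200.3, 192 and 173 in the Fpr2 VKO libraries. Across the 6 libraries the mean was 156 CPM in stem-like cells, 11.6 in TA-like cells, 1.09 in enterocyte-like cells and 1.96 in immune-like cells. Free RNA held 15.8 CPM of Lgr5, which the TA-like class as a whole did not exceed, though that class lay above the immune-like level. The TA-like clusters differed, however: the largest, 1100 of the 1740 cells and led by Cenpf, held 34.9 CPM (18.3 to 63.7 over the libraries), whereas the smaller and UMI-rich clusters led by Pbk and Ccnb1 held 4.72 and 2.89. The class nearest to the stem-like cells was the tuft-like class, chemosensory cells of the epithelium, with a mean of 75.9 CPM. Of the 6 libraries, 5 had more Lgr5 in stem-like than in tuft-like cells (exact sign-flip test over the libraries, two-sided, p = 0.0625), and the exception was Fpr2 VKO replicate 3, whose 48 tuft-like cells held 56 UMIs, or 197 CPM.

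Olfm4 (chr14:79984081-80023139, plus strand) encodes a secreted glycoprotein abundant in small intestinal stem cells. Its mean was 6877 CPM in stem-like cells, 549 in TA-like cells, 22.2 in enterocyte-like cells and 438 in free RNA. Immune-like cells held 44.3 CPM, more than the enterocyte-like cells in 5 of 6 libraries (exact sign-flip p = 0.0625, adjusted p = 0.138), while the latter had the deeper cells (medians of 5887 and 17629 UMIs). The part of free RNA in the Olfm4 of either class was not tested.

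Ascl2 (chr7:142966829-142969264, minus strand) encodes a basic helix-loop-helix transcription factor of the stem cell programme, a family that binds the short DNA word called an E-box. It was sparse, with a mean of 53.2 CPM in stem-like cells, 5.10 in TA-like cells and 5.81 in free RNA. Tnfrsf19 (chr14:60963875-61046490, minus strand) encodes the receptor also known as TROY, a Wnt target, and was sparser still at 21.5 CPM in stem-like cells, 2.84 in TA-like cells and 2.91 in free RNA. For both genes the level of the whole TA-like class was no higher than that of free RNA, but that of its Cenpf-led cluster was, at 9.79 CPM of Ascl2 and 7.25 of Tnfrsf19. Immune-like cells, the other background, held less of both genes than the TA-like class, at 1.19 CPM of Ascl2 (3 UMIs) and 0 of Tnfrsf19. Since these are the members in which low counts limit most of what follows, the 250 bases before each listed start site are shown from RefSeq on GRCm38.p6, with capitals marking every E-box (CANNTG) and every core of the TCF/LEF site through which Wnt signalling acts (CTTTGA, or TCAAAG on the other strand).
Ascl2, chr7:142969265-142969514, minus strand: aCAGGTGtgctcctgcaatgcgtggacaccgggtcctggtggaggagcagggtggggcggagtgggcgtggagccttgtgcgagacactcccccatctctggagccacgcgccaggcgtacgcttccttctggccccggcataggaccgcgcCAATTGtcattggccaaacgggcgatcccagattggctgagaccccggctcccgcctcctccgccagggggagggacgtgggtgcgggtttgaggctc
Tnfrsf19, chr14:61037988-61038237, minus strand, inside the gene and overlapping no exon: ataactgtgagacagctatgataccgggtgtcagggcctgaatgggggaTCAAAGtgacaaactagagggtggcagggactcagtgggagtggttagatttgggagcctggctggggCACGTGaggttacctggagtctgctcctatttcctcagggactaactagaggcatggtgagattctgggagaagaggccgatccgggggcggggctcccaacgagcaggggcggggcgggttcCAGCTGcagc
Tnfrsf19, chr14:61046856-61047105, minus strand, upstream of the gene: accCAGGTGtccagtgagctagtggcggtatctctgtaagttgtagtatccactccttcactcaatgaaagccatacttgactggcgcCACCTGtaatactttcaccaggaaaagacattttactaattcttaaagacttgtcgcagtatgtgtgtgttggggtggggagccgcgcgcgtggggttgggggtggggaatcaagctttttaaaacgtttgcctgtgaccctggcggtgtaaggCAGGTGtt
The Ascl2 window held 2 E-boxes and no TCF/LEF core. For Tnfrsf19 the window inside the gene held 2 E-boxes and 1 core, and the one upstream of it held 3 E-boxes and no core. Both words were searched on both strands in 10 windows of 6 of the 8 genes. The core was in 1 of the 10 and the E-box in 6 of the 10, against 13.8% and 66.2% of 32851 windows of the same length before genes in general. A match describes letters and not a bound site, and Lgr5 and Smoc2 had no window in the table used.

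Smoc2 (chr17:14279506-14404790, plus strand), Rgmb (chr17:15803188-15831039, minus strand), Prom1 (chr5:43993620-44102032, minus strand) and Cdca7 (chr2:72476159-72486893, plus strand) marked the stem-like cells less sharply. Smoc2, a secreted calcium-binding matrix protein, had a mean of 211 CPM in stem-like cells, 81.1 in TA-like cells, 77.7 in tuft-like cells and 73.0 in enteroendocrine-like cells. Rgmb, a membrane co-receptor for bone morphogenetic proteins, had 107 CPM in stem-like cells and 70.0 in enteroendocrine-like cells, the next class, and the stem-like value was the higher in 6 of 6 libraries (exact sign-flip p = 0.031, the smallest that 6 libraries allow).

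Prom1, which encodes the membrane glycoprotein also called CD133, was the least selective of the 8. It had 125 CPM in stem-like cells, 112 in enteroendocrine-like cells, and 87.9 in both goblet-like and tuft-like cells, and the stem-like value exceeded the enteroendocrine-like one in 4 of 6 libraries (exact sign-flip p = 0.25). Its highest level in any cluster lay outside the stem-like class, in 143 unnamed cells led by Ooep and Neurog3, the latter the transcription factor that starts enteroendocrine differentiation, where it reached 402 to 589 CPM over the 6 libraries. The same cluster held 14.3 CPM of Lgr5, below the free RNA level of that gene but above the 1.96 CPM of immune-like cells.

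Cdca7, a DNA-binding protein tied to the cell cycle and a target of Myc, had 216 CPM in stem-like cells and 71.4 in TA-like cells, and was higher in stem-like cells in 6 of 6 libraries. A cluster of 1616 unnamed cells led by Gphn held 226 CPM of Cdca7, as much as the stem-like class, with 58.2 CPM of Lgr5 and 819 of Olfm4. Those unnamed cells thus carried Cdca7 at the mean level of the stem-like class but Lgr5 and Olfm4 well below the means of that class. Their Lgr5 nevertheless exceeded the 36.8 CPM of the stem-like cluster led by replication genes.

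All 8 genes had their highest mean in the stem-like class among the named and pooled unnamed classes, and the ratio of that mean to the TA-like mean varied among them. Lgr5 was 13.4-fold higher in stem-like than in TA-like cells, Olfm4 12.5-fold, Ascl2 10.4-fold and Tnfrsf19 7.57-fold. The ratio was 3.02 for Cdca7, 2.82 for Rgmb, 2.6 for Smoc2 and 1.54 for Prom1. These ratios depend on the mix of TA-like clusters. Against the Cenpf-led cluster alone, a comparison chosen after seeing the data, they were 11.6 for Olfm4, 5.44 for Ascl2, 4.47 for Lgr5 and 2.97 for Tnfrsf19, beside 2.33 for Cdca7, 2.26 for Smoc2, 1.57 for Rgmb and 1.48 for Prom1. Against free RNA the stem-like level was 15.7-fold higher for Olfm4 and 2.92-fold higher for Rgmb, the lowest of the 8. The order of classes is a description, because genes that vary with the 8 took part in the clustering. The stem-like class was compared with the next class for each of the 8 genes, and 6 of these 8 sign-flip tests reached the smallest exact p of 0.031. Adjusted over all 64 tests of neighbouring classes (Benjamini-Hochberg), the smallest exact p was 0.0833. Prom1 was highest in enteroendocrine-like cells instead when cells were thinned to 3000 UMIs or libraries were not aligned, and Rgmb was so without alignment (68.5 against 67.8 CPM).

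**Figure D1:**
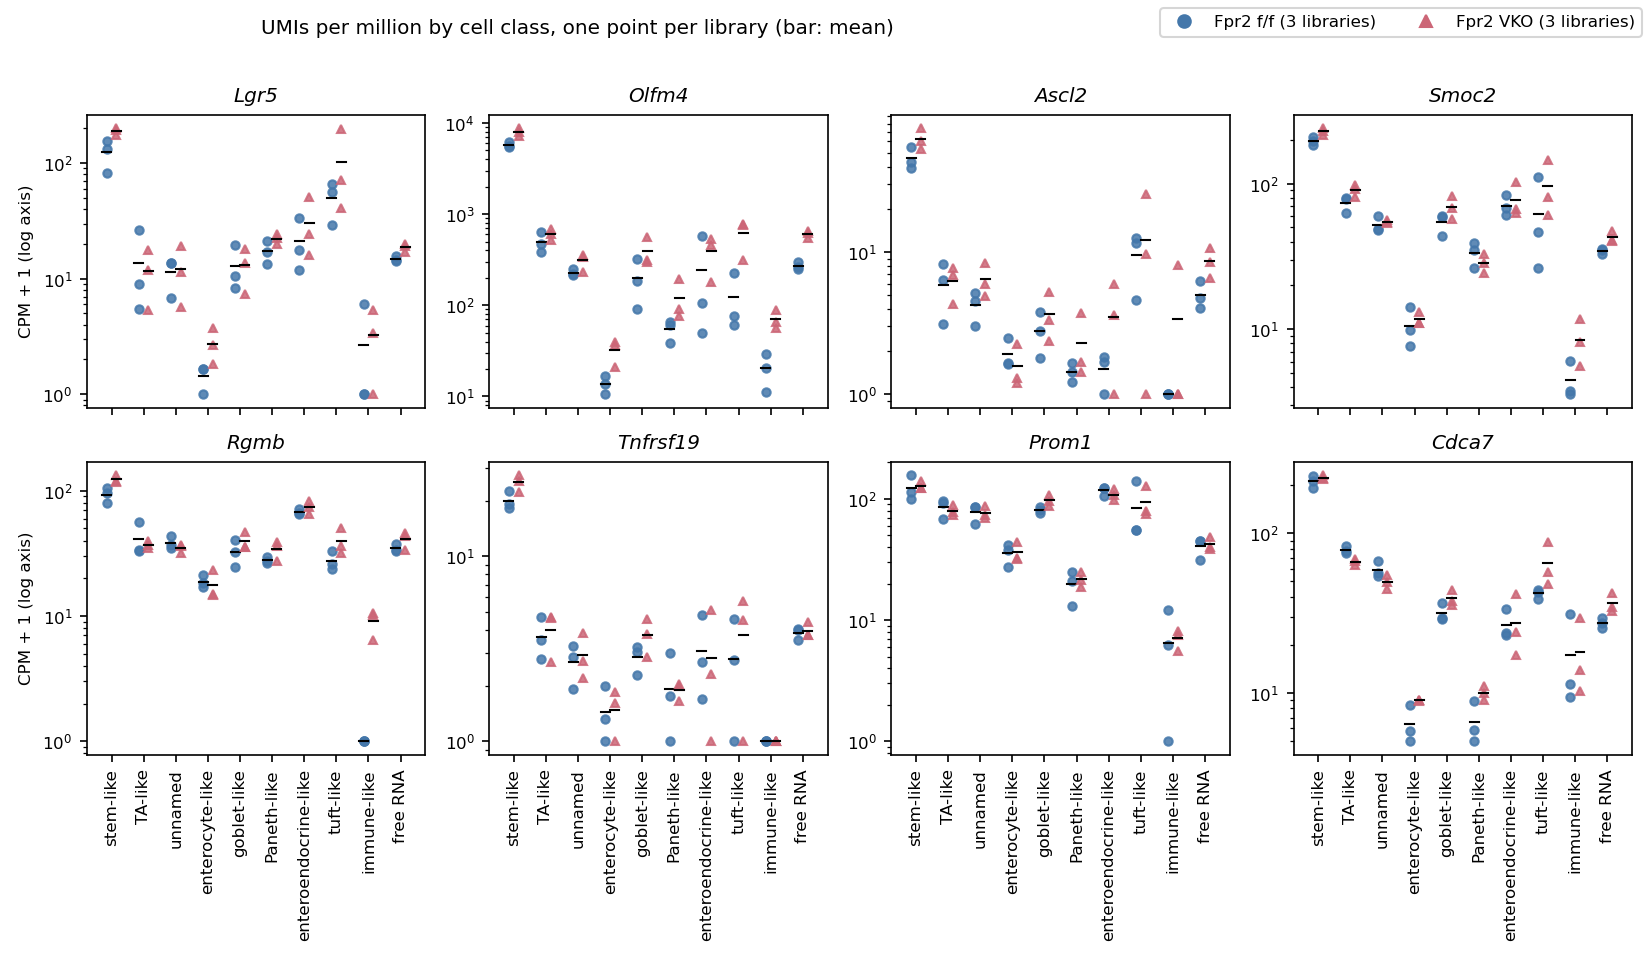
CPM plus 1 (log axis) of each of the 8 genes by cell class, 1 point per library with Fpr2 f/f and Fpr2 VKO in different colours and a bar at the mean. Lgr5, Olfm4, Ascl2 and Tnfrsf19 drop by 7.57-fold or more from stem-like cells to the TA-like class as a whole, whereas Prom1 stays within 1.54-fold.

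The genes also differed in how much of their epithelial signal the stem-like cells held. The stem-like class took 7.76 to 18.1% of all epithelial UMIs in a library. Of the Olfm4 UMIs it held a median of 79.7% over the 6 libraries (range 68.8 to 86.6%), of Ascl2 75.8% (54.5 to 82.6%), of Tnfrsf19 66.4% (48.7 to 76.9%) and of Lgr5 64.9% (49.1 to 83.2%). It held a smaller median share of Cdca7, Smoc2, Rgmb and Prom1, at 46.7% of Cdca7, 40.1% of Smoc2, 33.9% of Rgmb and 22.2% of Prom1. The shares were higher in Fpr2 VKO than in Fpr2 f/f without overlap for 7 of the 8 genes, Ascl2 being the exception, where 69.8% of 16647 genes with a mean of at least 10 epithelial UMIs a library were too, as was the stem-like share of all UMIs (7.76 to 12.7% against 17.4 to 18.1%). For Lgr5 they were 49.1 to 63.1% in Fpr2 f/f and 66.7 to 83.2% in Fpr2 VKO, and for Rgmb 18.3 to 26.0% and 41.8 to 45.1%. An epithelial sum of Olfm4 or Ascl2 is therefore mostly a sum over stem-like cells, and one of Prom1 is not.

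Within the stem-like class the 8 genes were not evenly spread. Every one of them had its highest mean in the Gkn3-led cluster. Lgr5 had 467 CPM there, 102 in the cluster with division genes and 36.8 in the cluster with replication genes. Olfm4 fell less steeply across the same clusters, from 12767 to 5801 and 4680 CPM. Tnfrsf19 had 50.3, 17.3 and 8.61 CPM, and Rgmb 206, 90.2 and 69.4 CPM. Prom1 again varied least, with 153, 116 and 120 CPM. The cluster with replication genes held Lgr5 at about the level of the Cenpf-led TA-like cluster (34.9 CPM), but more Olfm4 (4680 against 595 CPM). The Gkn3-led cluster made up 11.6, 29.6 and 17.0% of the stem-like cells in the Fpr2 f/f libraries and 27.6, 41.2 and 12.2% in the Fpr2 VKO libraries. These shares overlapped between the groups and varied widely within each, so a stem-like level depends on the mix of clusters in its library.

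**Figure D2:**
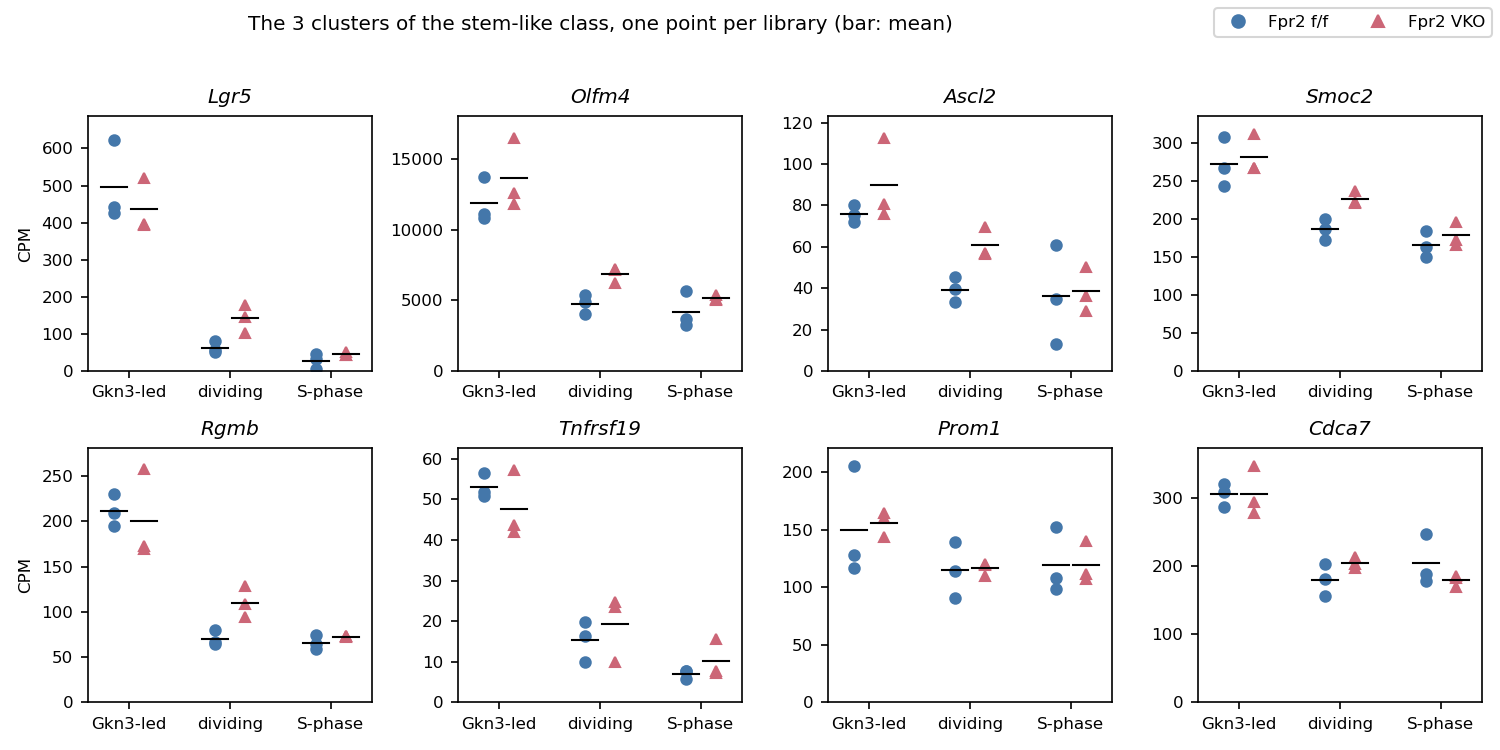
Level in CPM of the 8 genes in the 3 clusters of the stem-like class, 1 point per library coloured by group, with a bar at the mean. All 8 genes are highest in the Gkn3-led cluster, and in the cluster led by division genes the Fpr2 VKO points of Lgr5 (103 to 178 CPM) lie above the Fpr2 f/f points (49.9 to 81.8 CPM).

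The genotypes were first compared over all epithelial cells of a library, where a higher or lower sum can mean more or fewer cells of a type or a different amount of RNA per cell, which cannot be told apart. Olfm4 had 913, 612 and 789.8 CPM in the Fpr2 f/f libraries and 1775, 1598 and 1609.9 in the Fpr2 VKO libraries. The groups did not overlap, and the mean rose from 772 ± 151 to 1661 ± 98.7 CPM (SD, n = 3 each). The log2 fold change was 1.16 ± 0.14 (SE; edgeR quasi-likelihood test, adjusted p = 0.0118 over 16629 genes). Ascl2 had 6.34, 6.0 and 8.07 CPM in Fpr2 f/f and 16.6, 12.5 and 12.7 in Fpr2 VKO, again without overlap, and its log2 fold change was 1.08 ± 0.15 (edgeR adjusted p = 0.0473). These were the 2 of 8 genes that passed the threshold of 0.05, where 0.0421% of all genes tested did. The Ascl2 call did not outlast the removal of Fpr2 f/f replicate 2 or of any Fpr2 VKO library (edgeR adjusted p = 0.0581 to 0.160), and the Olfm4 call was lost without any 1 library but Fpr2 f/f replicate 1 (0.0505 to 0.132).

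Lgr5 showed a difference of similar size that did not pass. Its levels were 16.6, 20.6 and 29.4 CPM in Fpr2 f/f and 46.5, 40.3 and 46.8 in Fpr2 VKO, with no overlap and a log2 fold change of 1.04 ± 0.19 (edgeR adjusted p = 0.149). Without Fpr2 f/f replicate 1 or Fpr2 f/f replicate 3 edgeR gave adjusted p = 0.0170 and 0.0230, where 0.658% and 0.0174% of all genes passed. Tnfrsf19 had 3.49, 2.89 and 3.66 CPM against 6.20, 4.82 and 6.34, also without overlap, and a log2 fold change of 0.84 ± 0.17 (edgeR adjusted p = 0.158). Smoc2 (64.7 ± 6.73 against 83.0 ± 1.91 CPM) and Rgmb (40.6 against 49.8 CPM) did not overlap either, with log2 fold changes of 0.41 ± 0.10 and 0.34 ± 0.11 that did not pass. Prom1 and Cdca7 overlapped between the groups, at 0.08 ± 0.12 and 0.21 ± 0.10, and both fell below 0 when the stem-like cells were left out. Thus 6 of the 8 genes were higher in every Fpr2 VKO library than in every Fpr2 f/f library, where 3.21% of all genes tested were, and the median log2 fold change of the 8 was 0.62 against -0.01 over all genes. Markers of other cell types were read in the same sums. Of all 16629 genes tested there, 534 were higher and 1783 lower in every Fpr2 VKO library. Of 58 markers in 8 lists, 2 were higher in every Fpr2 VKO library, the Paneth cell gene Lyz1 (6157 against 9808 CPM) and the enterocyte gene Fabp2 (507 against 692 CPM), 1 was lower in every one (Avil, of tuft cells) and 1 had 0 UMIs in these cells (Neurod1, of enteroendocrine cells). The summed level of each of the 8 lists overlapped between the groups, at 26655 to 80607 against 55674 to 87231 CPM for the Paneth list and 1827 to 3082 against 2446 to 3027 CPM for the enterocyte list. In free RNA 5 of the 8 genes were higher without overlap (Lgr5, Olfm4, Ascl2, Smoc2 and Cdca7), where 2.82% of 15084 genes were, with Lgr5 at 13.9 against 17.7 CPM and Ascl2 at 4.0 against 7.61. The part of these in the epithelial sums was not tested.

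The share of stem-like cells was also higher in Fpr2 VKO over all cells kept. They made up 4.94, 2.47 and 4.03% of epithelial cells in Fpr2 f/f and 8.01, 11.3 and 10.2% in Fpr2 VKO, with no overlap (3.81 ± 1.25 against 9.84 ± 1.68%, SD, n = 3; exact permutation test, two-sided, p = 0.1, the smallest that 3 against 3 allows). With the stem-like cells left out of the epithelial sums, 0 of the 8 genes passed, and the log2 fold changes fell to 0.51 for Olfm4, 0.50 for Ascl2 and 0.30 for Lgr5 (edgeR adjusted p = 0.367, 0.745 and 0.929). That alternative was chosen after seeing the data. Among cells that reached 3000 UMIs, a limit also chosen after seeing the data, the shares were 9.62, 3.27 and 5.43% in Fpr2 f/f and 9.0, 15.04 and 12.3% in Fpr2 VKO. There the groups overlapped (6.11 ± 3.23 against 12.1 ± 3.03%, exact permutation test, two-sided, p = 0.2), since Fpr2 f/f replicate 1 lay above Fpr2 VKO replicate 1. Without the cluster led by replication genes, again chosen after seeing the data, the other 2 clusters made up 2.91, 1.8 and 2.09% in Fpr2 f/f and 5.06, 8.73 and 6.62% in Fpr2 VKO, without overlap. Over all cells kept, the difference in share narrowed from 6.03 to 2.18 percentage points when the mitochondrial limit was raised to 40%, and to 3.16 when it was lowered to 10%.

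Within the stem-like class 0 of the 8 genes passed, where 0.0893% of 11197 genes did. At an unadjusted edgeR p under 0.05 there were 5 of the 8, against 7.18% of all genes. DESeq2 called 1 of the 8, Olfm4 (adjusted p = 0.0128), and 0.161% of all genes. All 8 log2 fold changes were above 0, with a median of 0.38. Olfm4 had 5557, 5429 and 6247 CPM in Fpr2 f/f and 8795, 7943 and 7290.2 in Fpr2 VKO, and the groups did not overlap (log2 fold change 0.48 ± 0.13, edgeR adjusted p = 0.227). The Lgr5 values given above did not overlap either (0.62 ± 0.18, edgeR adjusted p = 0.382). Ascl2 had 38.1, 42.1 and 53.9 CPM against 73.5, 59.1 and 52.5, which overlapped at 1 library of each group (0.48 ± 0.15, edgeR adjusted p = 0.382). Rgmb had 78.7, 94.2 and 104 CPM against 132, 116 and 119, without overlap (0.42 ± 0.12, edgeR adjusted p = 0.337). Prom1 and Cdca7 differed least, at 0.06 and 0.08. With the mitochondrial limit at 10% the sign turned for Lgr5 (-0.012), Tnfrsf19 (-0.11) and Prom1 (-0.14). Lgr5, Olfm4, Smoc2 and Rgmb were the 4 of 8 genes without overlap, where 6.15% of all genes tested were higher in every Fpr2 VKO library.

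Since the mix of clusters differed among libraries, the clusters of the stem-like class were also compared one by one, a choice made after seeing the data. In the cluster with division genes, Lgr5 had 56.1, 49.9 and 81.8 CPM in Fpr2 f/f and 145, 103 and 178 in Fpr2 VKO. The groups did not overlap (62.6 ± 16.9 against 142 ± 37.6 CPM, SD, n = 3), and the log2 fold change was 1.20 ± 0.19 (edgeR adjusted p = 0.00589 over 10132 genes). It was the 1 gene of the 8 that passed there, where 0.128% of all genes did, and it no longer passed without Fpr2 f/f replicate 1 (edgeR adjusted p = 0.0508) or Fpr2 f/f replicate 2 (0.123). In the same cluster DESeq2 called 3 of the 8 (Lgr5, Olfm4 and Rgmb) and 0.188% of all genes, and edgeR with no filter on low counts called 2 (Lgr5 and Rgmb) and 0.299%. Rgmb came next at 0.66 ± 0.15 (edgeR adjusted p = 0.0678), from 70.2 ± 8.29 to 110.3 ± 17.0 CPM, followed by Ascl2 at 0.63 ± 0.17 and Olfm4 at 0.53 ± 0.14 (0.196 and 0.223). With Smoc2 these made 5 of 8 genes higher without overlap, where 6.09% of all genes were.

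In the cluster with replication genes 7 of the 8 genes could be tested and 0 passed, where 0.0344% of 8731 genes did, and 0 of the 8 were higher without overlap, where 4.83% of all genes were. At an unadjusted edgeR p under 0.05 there was 1, Olfm4 (0.32 ± 0.15), against 5.22% of all genes. In the Gkn3-led cluster, which had under 20 cells in 2 libraries and was not tested, 0 of the 8 were higher without overlap, where 5.43% of all genes were, and the mean of Lgr5 was 497 CPM in Fpr2 f/f and 436 in Fpr2 VKO. The clusters thus differed in what passed, and the difference between them was not tested.

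**Figure D3:**
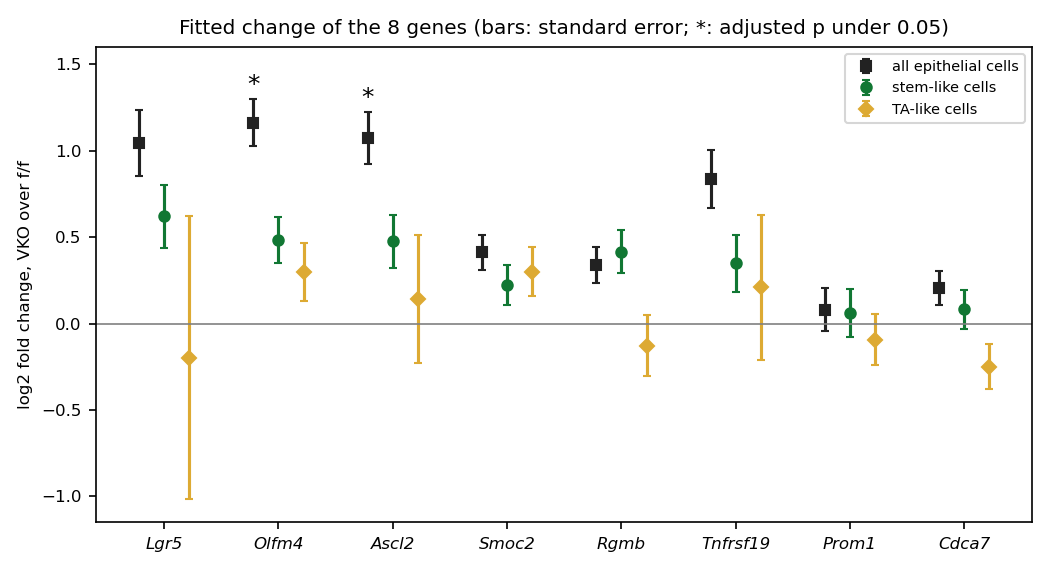
Log2 fold change of Fpr2 VKO over Fpr2 f/f with its standard error (edgeR, 3 libraries a group) for the 8 genes over all epithelial cells, in stem-like cells and in TA-like cells, with an asterisk where the adjusted p is under 0.05. Olfm4 (1.16) and Ascl2 (1.08) over all epithelial cells carry the asterisks, the stem-like values are all above 0, and the TA-like values lie on both sides of it.

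In TA-like cells the 8 genes lay on both sides of 0. None passed, where 0.0177% of 11268 genes did, 1 had an unadjusted edgeR p under 0.05 (Smoc2) against 3.70% of all genes, and the median log2 fold change was 0.03. Smoc2 had 77.5, 62.2 and 79.0 CPM in Fpr2 f/f and 79.8, 90.8 and 97.1 in Fpr2 VKO, without overlap (0.30 ± 0.14), in company with 3.61% of all genes. Cdca7 went the other way, with 76.8, 74.1 and 82.5 CPM in Fpr2 f/f and 65.8, 61.9 and 67.6 in Fpr2 VKO, lower without overlap (-0.25 ± 0.13) like 4.14% of all genes. Its direction turned to 0.10 when libraries were not aligned and to 0.01 when cells were thinned to 3000 UMIs.

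Whether the effect of genotype differed between stem-like and TA-like cells was tested as an interaction, with the library as a block. Of the 8 genes 0 passed, where 0.00848% of 11792 genes did. Rgmb had the smallest p (difference of log2 fold changes 0.52 ± 0.15, edgeR adjusted p = 0.786), followed by Cdca7 (0.33 ± 0.10, 0.869). For stem-like against enterocyte-like cells 0 of the 8 passed as well, where 0.00897% of 11146 genes did, and Olfm4 had a difference of -0.84 ± 0.29 (edgeR adjusted p = 0.348), which turned to 0.10 when libraries were not aligned and shrank to -0.06 when names needed no leading marker.

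In the other classes 1 call was made among the 8 genes. Olfm4 in enterocyte-like cells had 12.6, 9.58 and 15.8 CPM in Fpr2 f/f and 36.0, 20.2 and 38.8 in Fpr2 VKO, without overlap, and a log2 fold change of 1.31 ± 0.26 (edgeR adjusted p = 0.0476, where 0.137% of 9480 genes passed and 7.57% were higher without overlap). The values rest on 19 to 119 UMIs a library. The Olfm4 of free RNA moved the same way, from 271 ± 23.4 to 604 ± 51.9 CPM, and so did that of immune-like cells, from 19.4 ± 9.15 to 69.3 ± 17.0 CPM. The part of free RNA in the enterocyte-like result was not tested, and the result was lost without any 1 library but Fpr2 VKO replicate 2 (edgeR adjusted p = 0.0587 to 0.244). Tuft-like cells had 59.7 to 227 CPM of Olfm4 in Fpr2 f/f and 317 to 780 in Fpr2 VKO (log2 fold change 2.33 ± 0.69), which did not pass. The enterocyte-like fit held 5 of the 8 genes. There were 0 calls among the 6 of the 8 that could be tested in each of the Paneth-like (where 0.471% of genes passed), goblet-like (0.255%), enteroendocrine-like (0.0106%) and tuft-like classes (0.0827%), and 0 among all 8 in unnamed cells (0.00738%). Of the genes tested, those higher without overlap in Fpr2 VKO were 2 in the enterocyte-like class (Olfm4 and Cdca7), 2 in the Paneth-like class (where 5.01% of all genes were), 1 in the goblet-like (12.7%), 2 in the tuft-like (5.75%), and 0 in the enteroendocrine-like (3.97%) and unnamed classes (5.06%).

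At an equal depth of 3000 UMIs 11989 epithelial cells could be compared, 986 of them stem-like, and shallower cells were left out (776 to 1307 in the Fpr2 f/f libraries, 353 to 753 in the Fpr2 VKO libraries). Olfm4 was found in a mean of 95.9% of stem-like cells over the 6 libraries, in 47.5% of TA-like cells and in 9.16% of immune-like cells. Lgr5 was found in 26.4, 4.58 and 1.32% of the same classes, and in 48.1% of stem-like cells without thinning. Ascl2 was found in 16.0% of stem-like cells (55.8% without thinning) and 0.617% of immune-like cells, and Tnfrsf19 in 6.37% (29.4% without thinning) and in 0 of 298 immune-like cells, which allows up to 1.01%. Cdca7 (46.4%), Smoc2 (43.7%), Prom1 (29.0%) and Rgmb (26.2%) lay between, and each was found in at least 13.8% of TA-like cells. At this depth a stem-like cell without an Lgr5 UMI was thus more common than one with it, and more stem-like cells had a UMI of Lgr5, Ascl2 or Tnfrsf19 when their full depth was kept.

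The number of the 8 genes found per cell also differed between the classes. Of stem-like cells, 1.01% had none of the 8, 13.9% had 1, 27.9% had 2, 24.3% had 3, 17.4% had 4 and 11% had 5, and 0 of the 986 had all 8, which allows a share of up to 0.304% by counting error alone. At least 3 were found in a mean of 56.4% of stem-like cells, 14.3% of TA-like cells, 0.453% of enterocyte-like cells and 0.492% of immune-like cells. Of immune-like cells 83.2% had none.

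**Figure D4:**
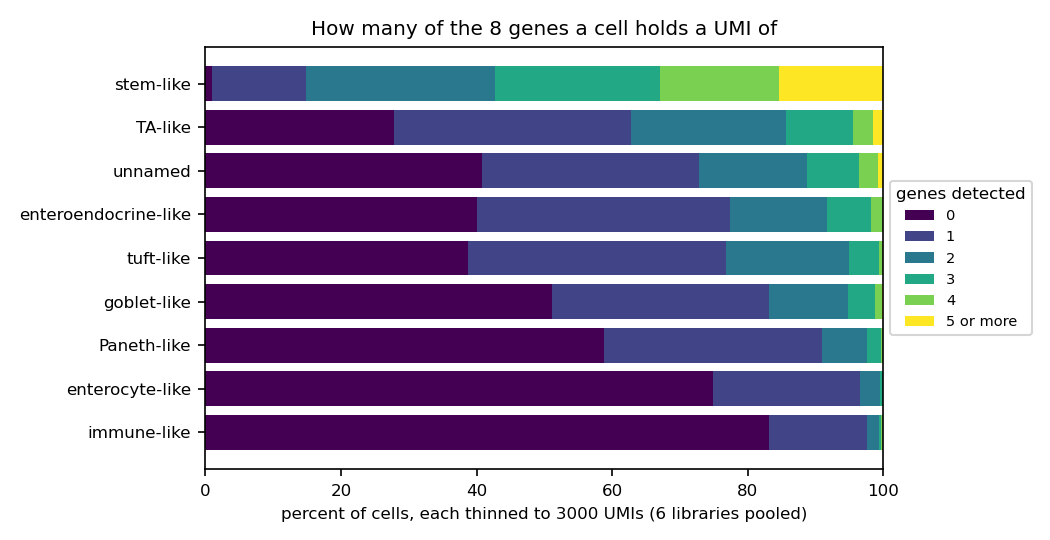
Percent of cells (stacked bars from 0 to 100) of each class in which 0, 1, 2, 3, 4 or at least 5 of the 8 genes had a UMI after thinning to 3000 UMIs, with the 6 libraries pooled. Stem-like cells are spread around 2 to 3 genes, with 1.01% at 0, and 83.2% of immune-like cells are at 0.

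The share of stem-like cells with at least 3 of the genes was 44.4, 58.0 and 59.6% in Fpr2 f/f and 56.7, 61.0 and 58.3% in Fpr2 VKO. The groups overlapped (54.0 ± 8.35 against 58.7 ± 2.18%, SD, n = 3; exact permutation test, two-sided, p = 0.5), and the difference rested on Fpr2 f/f replicate 1, without which it was -0.149 percentage points. In TA-like cells the shares were 12.6 ± 4.17 and 16.0 ± 2.79% (exact p = 0.3), and over all epithelial cells 11.6 ± 2.74 and 15.5 ± 2.49% (exact p = 0.2). At the 10% mitochondrial limit the difference turned to -2.41 points in stem-like cells and -1.22 over all epithelial cells. The mean number of the 8 found per stem-like cell was 2.52, 2.84 and 2.89 in Fpr2 f/f and 3.01, 3.10 and 3.04 in Fpr2 VKO, without overlap. Over all epithelial cells it was 0.993, 0.937 and 1.08 against 1.22, 1.16 and 1.37, also without overlap. In TA-like cells the means overlapped, and these means were not tested. Among the single genes, Olfm4 was found in 31 ± 2.20% of all epithelial cells in Fpr2 f/f and 44.5 ± 5.53% in Fpr2 VKO without overlap (exact p = 0.1, the smallest possible). Smoc2 in stem-like cells did not overlap either (40.2 ± 3.14 against 47.2 ± 2.40%, exact p = 0.1, but a difference of -1.02 percentage points without thinning), whereas Lgr5 in stem-like cells did (23.3 ± 7.15 against 29.5 ± 1.30%, exact p = 0.4).

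Pairs of genes were then counted in the same cell at 3000 UMIs, against the number expected in each library from the share of cells with each gene. Over all epithelial cells all 28 pairs were found together more often than expected, with a median ratio of 2.09 (1.18 to 5.83), and 24 of the 28 were above 1 in every library. Lgr5 and Tnfrsf19 shared 54 cells where 9.26 were expected (ratio 5.83, library range 3.49 to 11.6), Lgr5 and Ascl2 81 where 18.3 were (4.44), and Ascl2 and Tnfrsf19 16 where 4.15 were (3.85). The lowest ratios belonged to pairs with Prom1, at 1.18 with Olfm4 and 1.20 with both Rgmb and Cdca7. Pairs of a member with Mki67, Lyz1 or Fabp2, which mark division, Paneth cells and enterocytes, had a median of 0.962 over 24 pairs (0.649 to 1.30), with Lgr5 and Fabp2 at the low end.

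Within the stem-like class the ratios lay closer to 1. The median over the 28 pairs was 1.14 (0.929 to 2.36), 26 were above 1 and 11 were so in every library, and the 24 comparison pairs had a median of 0.991. Lgr5 and Tnfrsf19 kept the highest ratio, with 41 cells where 17.4 were expected (2.36), followed by Lgr5 and Rgmb with 121 where 74.1 were (1.63) and Lgr5 and Ascl2 with 61 where 43.7 were (1.40). Lgr5 and Tnfrsf19 also had the largest ratios of highest to lowest mean level among the 3 clusters. Lgr5 and Fabp2 had a ratio of 0.794. The median ratio was 2.1 in Fpr2 f/f and 1.93 in Fpr2 VKO over all epithelial cells, and 1.14 and 1.12 in stem-like cells. The ratios describe cells that share a library and its free RNA, and no test was made on them.

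**Figure D5:**
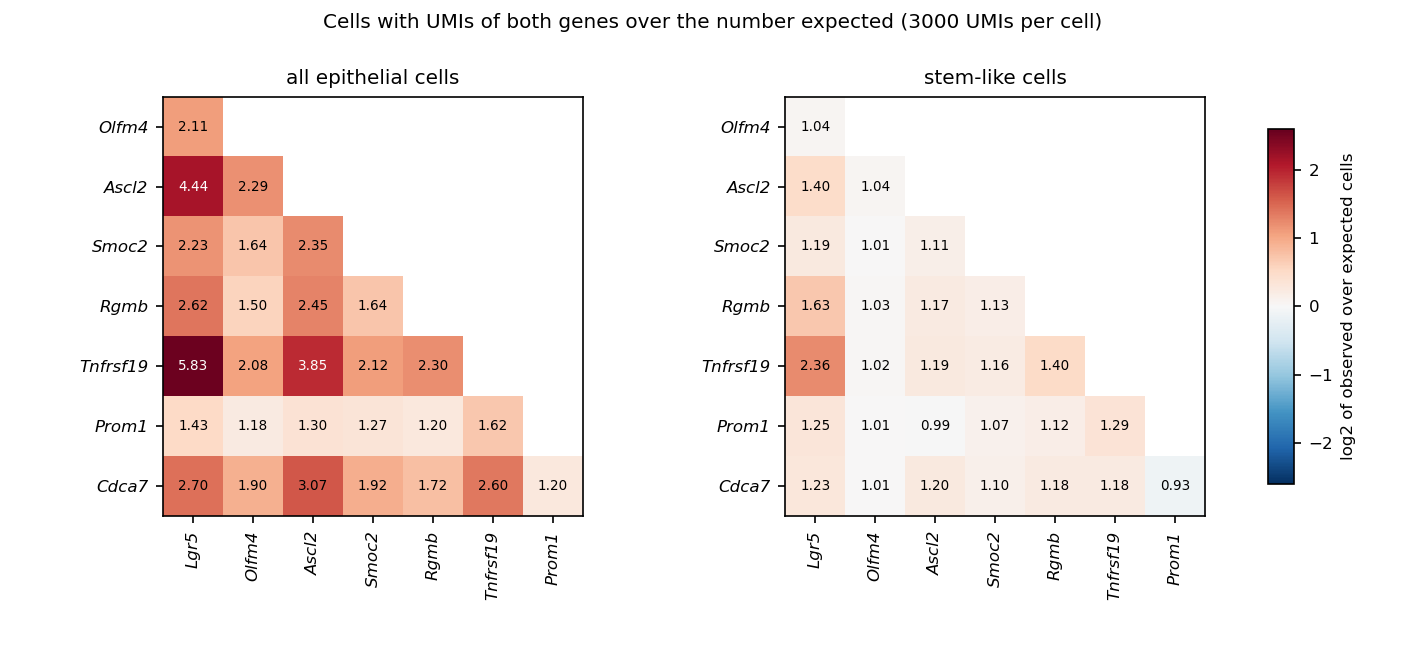
Observed over expected number of cells with both genes of a pair at 3000 UMIs, as a colour for each of the 28 pairs, over all epithelial cells (left) and in stem-like cells (right). Lgr5 with Tnfrsf19 is the strongest pair in both (5.83 and 2.36), and the pairs with Prom1 are among the weakest.

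Over 54 sums of a class and a library, the genes whose log2 level followed the members most closely were sought among 6568 genes, as a description. Sox9, a transcription factor of crypt cells, was nearest to Lgr5 (Pearson r = 0.84), and Slc12a2, an ion cotransporter of crypt base cells, to Olfm4 (0.92). Kcne3, a potassium channel subunit, and the Wnt target Axin2 were nearest to Ascl2 (0.78 each). Tnfrsf19 went with Ifitm2 (0.81) and Axin2 (0.80), Smoc2 with Cdo1 (0.90) and Rgmb with Gstm5 (0.90). Prom1 followed Esrp1, an epithelial splicing factor (0.95), and Cdca7 followed Impdh2, an enzyme of guanine nucleotide synthesis (0.93). These sums share libraries and classes and are not independent.

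A list of 30 other crypt base and Wnt target genes, which holds all of the markers by which clusters were named stem-like (Ifitm3 was not such a marker), was read in the same fits. None passed in any class. Over all epithelial cells 29 could be tested, 24 had log2 fold changes above 0, 13 had an unadjusted edgeR p under 0.05, all higher in Fpr2 VKO, where 8.98% of all genes had such a p in either direction, and the median was 0.29. The smallest adjusted p was 0.0790, for Slc12a2 (0.68 ± 0.11). In stem-like cells 28 were tested with a median of 0.19, and 5 were higher and 1 lower at an unadjusted p under 0.05, where 7.18% of all genes had such a p. In TA-like cells 26 were tested, 14 lay above 0, 0 had an unadjusted edgeR p under 0.05 (3.70% of all genes did), and the median was 0.02.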

How the data were processed

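Single-cell RNA-seq of EpCAM-sorted ileal crypt cells was done on the MobiNova-100 platform in 3 Fpr2 f/f and 3 Fpr2 VKO libraries. The authors aligned the reads to mm10 with MobiVision and deposited raw UMI counts per gene and barcode, with 32285 genes and 2359296 barcodes a library, before their own analysis with Seurat 4.0, in which low quality cells and doublets were taken out by UMI number or with DoubletFinder. Their cell annotation was not used here, and names rebuilt here may differ from theirs.

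Cells were kept with at least 1000 UMIs, 500 genes and at most 20% mitochondrial UMIs. Clustering (scanpy 1.11.5, leidenalg 0.10.2, resolution 1, libraries aligned by mutual nearest neighbours) left out the 8 genes. A cluster took a class name from marker lists, with 1 marker among its 10 leading genes. That naming rule was set after the clusters were seen and before the levels of the 8 genes were read. Doublets were marked and kept. The 8 genes and all gene lists were chosen with earlier results of these data known.

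UMIs were summed per class and library and tested with edgeR 4.0.16 (TMM, filterByExpr, robust quasi-likelihood F-test, Benjamini-Hochberg adjustment over all genes tested, threshold 0.05) in R 4.3.3. A class needed at least 20 cells in every library. DESeq2 1.42.0 was an alternative. On simulated counts with 3 libraries a group, edgeR recovered 77.3% of changes of 1 and 95.8% of changes of 2 (log2) over all epithelial cells (16629 genes). Of its calls there 8.74% were genes simulated without a change, and in stem-like cells 6.45% were. Differences between classes were fitted as an interaction. For shares of cells and for pairs, each cell was thinned without replacement to 3000 UMIs, and groups were compared by exact permutation tests in scipy 1.17.1. Limits from a count of 0 use 3 counts and cover counting error only. Libraries shared 0 to 23 cell barcodes, at most 1.01% of the smaller library. Motifs were searched in RefSeq windows of 250 bases.

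Same-numbered libraries of the groups had correlations of their deviations from the group means of -0.07 to 0.29 over all epithelial cells. Libraries of different number had -0.17 to 0.20. In stem-like cells these ranges were 0.04 to 0.21 and -0.17 to 0.02, and in TA-like cells 0.09 to 0.28 and -0.25 to 0.16. The replicate numbers were not taken to pair the samples in the reported fits, and a fit with them as a block was an alternative. The genes named are the 8, a list of 30 other crypt base and Wnt target genes (named where they passed, or for the smallest adjusted p), the genes most like each member in Pearson correlation of log2(CPM + 1) among genes of at least 20 CPM, and Mki67, Lyz1, Fabp2 and Fpr2. Alternatives were DESeq2, RLE factors, no filter, a replicate block, each library left out, mitochondrial limits of 10% and 40%, at least 2000 UMIs, doublets removed, no alignment, resolution 1.5, and thinning to 1500, 3000 or 6000 UMIs. Alternatives chosen after seeing the data were names without a leading marker, no shared barcodes, replicates 1 and 2 only, epithelial sums without stem-like cells, the share of stem-like cells among cells of at least 3000 UMIs and without the cluster led by replication genes, ratios to each TA-like cluster, and each stem-like cluster alone.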

Additional observations from a re-analysis of the deposited data

Results flagged for a closer look

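Cdca7 was lower in every Fpr2 VKO library than in every Fpr2 f/f library in TA-like cells, by -0.25 on the log2(CPM + 1) scale, and higher in every one in 3 other classes. Of all genes tested, 4.14% were lower in this way in TA-like cells. The shares that were higher were 5.01% in Paneth-like, 7.57% in enterocyte-like and 5.75% in tuft-like cells. In Paneth-like cells its mean was 5.60 CPM in Fpr2 f/f and 9.04 in Fpr2 VKO (0.61, which differs from the TA-like value by 0.860). In enterocyte-like cells it was 5.39 and 7.97 CPM (0.49, a difference of 0.744), and in tuft-like cells 41.1 and 63.7 CPM (0.62, a difference of 0.875). What drew attention was that every library of 1 class moved one way and every library of the other the opposite way, and these differences between classes were not tested. The Cdca7 of free RNA was also higher in every Fpr2 VKO library, with means of 26.5 and 35.5 CPM, and its part in the Paneth-like, enterocyte-like and tuft-like values was not tested.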

How the results depend on the processing

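Over all epithelial cells 2 of the 8 genes passed. With DESeq2 and with no filter on low counts 4 did, while genes passing among all tested rose from 7 to 106 and 180. With the mitochondrial limit at 40%, a minimum of 2000 UMIs or resolution 1.5, 1 did. With the limit at 10% (128 of all genes), cells thinned to 3000 UMIs, stem-like cells left out or replicates 1 and 2 only, 0 did. Leaving out 1 library gave 0 to 3, with 1 to 114 of all genes passing, the most without Fpr2 f/f replicate 1. In stem-like cells the count of 0 became 1 with DESeq2, the replicate block, no alignment, names without a leading marker or the division gene cluster alone, 2 with no filter, and stayed at 0 with each library left out. Genes passing among all tested there were 10 in the reported fit, 18 with DESeq2, 77 with the block and 23 with no alignment. They were 52 with names without a leading marker, 113 with no filter, 13 in the division gene cluster and 4 to 19 with 1 library left out. The 1 call in the other classes became 2 with no filter, the replicate block, thinning or replicates 1 and 2 only, and 0 with the limit at 10%, a minimum of 2000 UMIs, no alignment, resolution 1.5 or no shared barcodes, and 0 to 1 with 1 library left out. For stem-like minus enterocyte-like cells the count of 0 became 1 with no filter and without Fpr2 VKO replicate 2 (0 to 1 over the libraries left out), where the gene was Olfm4 (-0.87 and -1.12), and 1 with names without a leading marker, where it was Lgr5 at 1.45 (edgeR adjusted p = 0.0189), whose reported fit gave -1.24.

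With the replicate number as a block, genes passing among all tested rose from 7 to 50 over all epithelial cells and from 10 to 77 in stem-like cells. Lgr5 then passed over all epithelial cells (edgeR adjusted p = 0.0204) and Olfm4 in stem-like cells (0.0186). In the division gene cluster 1 of the 8 passed without the block and 4 with it (Lgr5, Olfm4, Rgmb and Ascl2), 3 with DESeq2, 2 with no filter, and 0 to 2 with 1 library left out. Genes passing among all tested there rose from 13 to 121 with the block, and were 5 to 22 with 1 library left out. In stem-like cells each Fpr2 f/f library correlated best with its own number, and over all epithelial cells only replicate 3 did.

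Of 168 refits of single genes over all epithelial cells 137 kept direction and side of the threshold, as did 147 of 160 in stem-like cells. In TA-like cells, where only Smoc2 and Cdca7 were followed, 38 of 40 did. Signs turned as follows, in log2 fold change. Over all epithelial cells Prom1 was -0.044 without Fpr2 f/f replicate 2 (up to 0.16 over the libraries left out) and -0.016 with stem-like cells left out, and Cdca7 was -0.17 with the limit at 10% and -0.25 with stem-like cells left out. In stem-like cells at the 10% limit Lgr5 was -0.012, Tnfrsf19 -0.11 and Prom1 -0.14. There Prom1 was -0.072 without Fpr2 f/f replicate 2 (up to 0.25 over the libraries left out) and -0.030 without Fpr2 VKO replicate 2, and Cdca7 was -0.0036 when thinned and -0.079 without a leading marker. Cdca7 in TA-like cells became 0.10 without alignment and 0.012 when thinned. Differences between classes were followed here only for Rgmb and Cdca7 in stem-like minus TA-like cells and Olfm4 in stem-like minus enterocyte-like cells. Of these, Olfm4 became 0.10 without alignment and Cdca7 -0.0089 when thinned. Turned signs of the other genes in these differences are not listed.

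Differences in shares of cells (Fpr2 VKO minus Fpr2 f/f, percentage points) turned mainly at the 10% limit. At least 3 genes then gave -1.22 over all epithelial and -2.41 in stem-like cells, and in stem-like cells -0.753 without thinning and -0.149 to 7.45 with 1 library left out. Over all epithelial cells at that limit Lgr5 was -0.117, Smoc2 -3.30, Rgmb -1.01, Prom1 -1.75 and Cdca7 -2.58. Rgmb was also -0.208 without Fpr2 f/f replicate 1 and -0.269 without Fpr2 VKO replicate 3 (up to 1.42 over the libraries left out), and Prom1 -0.116 without Fpr2 f/f replicate 2 (up to 2.49). In stem-like cells at that limit Lgr5 was -1.35, Ascl2 -0.963, Tnfrsf19 -0.262 and Prom1 -2.36. Without thinning Olfm4 was -0.208, Smoc2 -1.02, Prom1 -0.0770 and Cdca7 -1.67. Ascl2 was -1.29 without Fpr2 f/f replicate 1 (up to 2.58), and Cdca7 -0.804 at 1500 UMIs. The median pair ratio over all epithelial cells was 1.83 at 6000 UMIs. The causes were not tested.

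The mean share of stem-like cells stayed higher in Fpr2 VKO under every alternative run, by 6.0 percentage points among cells of at least 3000 UMIs, where the groups overlapped. The Gphn-led cluster raised 8 stem markers (mean log2 fold 0.568) but had none among its leading genes, so it was not counted as stem-like. It held 279, 491 and 303 of 2609, 4663 and 2779 epithelial cells in Fpr2 f/f. In Fpr2 VKO its shares were lower, with 198, 220 and 125 of 2173, 2704 and 1843. Low counts of Tnfrsf19 and Ascl2 in TA-like cells limit their comparison there. For the whole class both genes lay at the level of free RNA, though above that of immune-like cells. Too few cells remained to run enterocyte-like, enteroendocrine-like and tuft-like cells and the interactions at the 10% limit, and tuft-like cells when thinned.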
